A study of Mus musculus with 12 samples.

Results

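The tumours described here are 5 mouse pancreatic tumours from animals given a CSF1R inhibitor, labelled CSF1Ri 1 to CSF1Ri 5. They were chosen by that treatment label, with earlier results of these data known. They were measured on 6 of the 12 arrays of the series and are 5 of its 9 tumours, because CSF1Ri 1 was hybridised a second time. Adult female C57BL/6J mice received syngeneic tumour cells mixed with Matrigel by surgical implantation into the pancreas. Once tumours were established, the inhibitor was given in chow for 8 days. Which compound was used, and how much, the labels do not say. Mice were perfused with heparin in saline before the tumours were taken and digested with collagenase, and total RNA of the whole digested tissue was hybridised to Illumina bead arrays. All levels below come from within this treated group, and none is set against vehicle-treated tumours. Arrays of vehicle-treated tumours do enter the normalisation and the error of the test. The labels number the tumours without naming the animals, so they are taken as separate tumours.

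CSF1R is the receptor for the cytokines CSF1 and IL34, and its kinase signal sustains most tissue macrophages and the maturation of part of the monocyte lineage. Neutrophils, mast cells and most dendritic cells depend mainly on other growth factor receptors, such as those for G-CSF, stem cell factor and FLT3 ligand. Pancreatic tumours are known to be rich in macrophages and fibroblasts, and a tumour grown in the pancreas lies against acinar, ductal and islet tissue. In bulk RNA, fewer cells of a type and less RNA per cell cannot be told apart.

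Levels are normalised log2 intensities, and each gene is represented by the probe with the highest mean. Levels of different genes come from different probes and are not set against each other. A gene counted as detected in a tumour when a probe of it had a detection p-value under 0.05 on every array of that tumour. A gene is said to differ between tumours when a moderated F-test over the 5 tumours gave an adjusted p under 0.05, with the error taken from repeat hybridisations of the same tumour. That error holds hybridisation noise and not the sampling or extraction of tissue, so the test says which genes differ between these RNA samples.

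The mean unscaled intensity of the 6 arrays ranged from 149.4 in CSF1Ri 3 to 261.0 in CSF1Ri 4, and 16219 to 17356 of 45281 probes were detected per array. The repeat arrays of CSF1Ri 1 differed by a median of 0.18 over 10272 genes, and 106 genes differed by more than 1 log2 unit between them. Between tumours, the number of genes more than 1 log2 unit apart ranged from 134 for CSF1Ri 1 against CSF1Ri 4 to 776 for CSF1Ri 3 against CSF1Ri 4. The median difference ranged from 0.16 for CSF1Ri 1 against CSF1Ri 5 to 0.31 for CSF1Ri 3 against CSF1Ri 4. The lowest was thus no larger than that between repeat arrays, although CSF1Ri 1 is here the mean of both its arrays. The epithelial keratin gene Krt8 had 13.45, 13.53, 13.45, 13.63 and 13.62 in CSF1Ri 1 to 5 and Krt19 had 11.70, 12.38, 11.92, 11.44 and 11.79. Both were detected in all 5 tumours, while the probe for Epcam was not detected in a tumour.

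CSF1Ri 3 stood apart in the signal of its H2-Ea probe. H2-Ea encodes the alpha chain of the class II molecule I-E, and mice with the C57BL/6 haplotype of the histocompatibility complex are known not to make it. Its level was 5.65 in CSF1Ri 1, 7.36 in CSF1Ri 2, 12.05 in CSF1Ri 3, 6.16 in CSF1Ri 4 and 5.28 in CSF1Ri 5. CSF1Ri 3 was thus 109-fold above CSF1Ri 5 (adjusted p = 0.000239), and the probe was detected on all 6 arrays. The gene has 1 kept probe, and neither what the probe binds nor the strain of the samples was tested. CSF1Ri 3 also gave the dimmest array. For both reasons counts for the main gene lists are given below with and without it.

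Genes of myeloid cells were still detected widely in the treated tumours. Of 257 distinct genes in 14 myeloid lists that the array names, 135 were detected in all 5 tumours (52.5%), 65 in 1 to 4 tumours and 57 in none (22.2%). Over all 19057 named genes the same shares were 45.2% detected in all 5 tumours and 39.4% in none. By tumour, 165 of the myeloid genes were detected in CSF1Ri 1, 152 in CSF1Ri 2, 188 in CSF1Ri 3, 160 in CSF1Ri 4 and 174 in CSF1Ri 5. Over all named genes the counts were 9258, 9638, 10230, 10081 and 10095, so CSF1Ri 3 was highest there too. In CSF1Ri 1 a probe had to pass on both arrays and elsewhere on a single array, which can only lower its counts. Its arrays had 16519 and 17251 detected probes, and the array of CSF1Ri 2 had 16219. CSF1Ri 2 was the only tumour lacking 11 of the myeloid genes and 166 of all genes, and CSF1Ri 3 the only one with 9 of the myeloid genes and 470 of all genes. The lists overlap in part, as several genes mark more than one myeloid type.

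**Figure D1:**
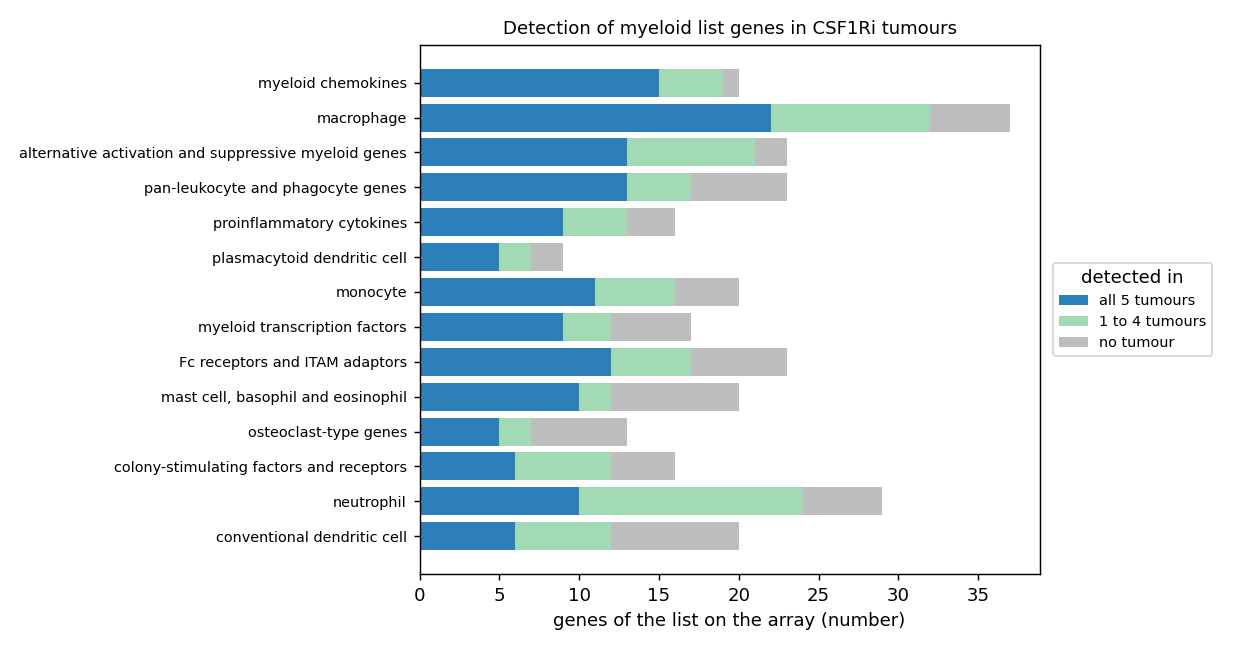
Number of genes of each myeloid list that were detected in all 5 CSF1Ri tumours (blue), in 1 to 4 of them (green) or in none (grey), with lists ordered by the share detected in all 5. Myeloid chemokines are at the top with 15 of 20 genes detected in all 5 tumours, and conventional dendritic cell genes at the bottom with 6 of 20.

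The receptor gene itself remained detected in every treated tumour. Csf1r had 6.36 in CSF1Ri 1, 6.02 in CSF1Ri 2, 6.76 in CSF1Ri 3, 6.01 in CSF1Ri 4 and 6.06 in CSF1Ri 5, and the test did not separate the tumours (adjusted p = 0.342). Its ligand gene Csf1 had 7.17, 6.05, 7.14, 6.65 and 6.75 in the same order, with the lowest value in CSF1Ri 2 (adjusted p = 0.054, and 0.0242 to 0.0411 in 4 alternatives). The other ligand gene, Il34, had 8.19, 8.15, 7.63, 7.84 and 8.07 (adjusted p = 0.266). Both ligand genes were detected in all 5 tumours. An inhibitor of the kinase acts on the protein, and no protein was measured.

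Of 37 macrophage list genes on the array, 22 were detected in all 5 tumours and 5 in none. The 5 undetected genes were Siglec1, a sialic acid receptor of resident macrophages, Fcer1g, the shared signalling chain of Fc receptors, Cd5l, Maf and Cd300a. Adgre1, which encodes the F4/80 antigen, was detected in 4 tumours, with 5.79, 4.37, 5.43, 5.21 and 5.08 in CSF1Ri 1 to 5. Mertk, a receptor for dying cells, was detected in all 5, at 5.87, 5.88, 6.08, 5.21 and 5.59. The mannose receptor gene Mrc1 had 7.90, 7.56, 8.13, 7.56 and 8.00, and the haemoglobin scavenger receptor gene Cd163 was detected in 2 tumours.

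Many macrophage genes differed between the tumours, and CSF1Ri 3 and CSF1Ri 1 were usually highest. The test separated the tumours for 12 of 31 macrophage genes that passed the detection filter, against 6.61% of all 10272 genes tested. Lyz2, the macrophage and neutrophil lysozyme, had 11.95 in CSF1Ri 1, 11.13 in CSF1Ri 2, 12.53 in CSF1Ri 3, 10.15 in CSF1Ri 4 and 10.73 in CSF1Ri 5. That is a 5.20-fold range (adjusted p = 0.0034), lost when the gene's probe with the lowest mean was used. The complement gene C1qa, made mainly by macrophages, had 8.71, 8.36, 9.29, 7.65 and 8.01, with CSF1Ri 4 lowest (adjusted p = 0.0259). Tyrobp, the adaptor of TREM and related receptors, had 8.06, 6.98, 8.42, 7.04 and 7.03 (adjusted p = 0.0165), so CSF1Ri 1 and CSF1Ri 3 stood above the other tumours. Without CSF1Ri 3 the test separated 2 of 30 macrophage genes, against 2.41% of all genes, and the call for C1qa was lost. With array brightness as a covariate it separated 4 of 31, against 3.38% of all genes, and the call for C1qa was lost there and in 3 further alternatives given below. Since each tumour has its own level in the fit, the effect of that covariate is estimated from repeat arrays only. It cannot separate brightness from tumour, and it uses up part of the information on the error, so calls may be lost for that reason.

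Of 20 monocyte genes on the array, 11 were detected in all 5 tumours and 4 in none, among them Ccr2, the receptor that draws inflammatory monocytes, and Itgam, the CD11b integrin chain. The fractalkine receptor gene Cx3cr1 was detected on 1 array. Plac8, a cysteine-rich protein gene of monocytes and other cells, had 12.61, 12.66, 12.69, 12.93 and 12.91 in CSF1Ri 1 to 5, and Ly6c1, which endothelium also expresses, had 12.36, 12.61, 12.69, 12.41 and 12.29. Neither passed the test. Of 15 monocyte genes tested, Chil3 alone passed it (6.67%), which is about the share among all genes (6.61%). Chil3 encodes the chitinase-like protein Ym1 of mouse macrophages and neutrophils, and had 9.69, 5.41, 8.90, 7.36 and 6.22 (adjusted p = 0.000499). All 3 of its probes had CSF1Ri 1 highest and CSF1Ri 3 next.

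Neutrophil genes showed the largest spread of the myeloid lists. Their mean level was 6.88 in CSF1Ri 1, 6.23 in CSF1Ri 2, 7.60 in CSF1Ri 3, 6.20 in CSF1Ri 4 and 6.36 in CSF1Ri 5, with an SD of 0.60. The test separated 12 of 20 neutrophil genes, against 6.61% of all genes. Of those 12, 10 had CSF1Ri 3 and CSF1Ri 1 as the highest tumours, against 30.9% of the 679 genes that differed. A gene detected in 2 tumours alone, such as Mpo, entered the test only through the tumours where it was high. The filter fixes part of the order of such a gene, so its call does not count as support for that order. S100a8, one chain of calprotectin, had 10.22, 8.39, 10.97, 8.46 and 8.58, a 5.97-fold range (adjusted p = 0.00171). Camp, the cathelicidin of secondary granules, had 7.10, 4.45, 8.09, 5.51 and 5.55 (adjusted p = 0.000438), and was not detected in CSF1Ri 2. Mpo, the myeloperoxidase of primary granules, was detected in CSF1Ri 1 and CSF1Ri 3 only, at 6.30 and 7.49, and had 4.83, 4.46 and 4.68 in the other tumours (adjusted p = 0.000438). Calls for these 3 genes held in every alternative that tested them. For S100a8 and Camp these included leaving out CSF1Ri 3 or CSF1Ri 1, while Mpo then missed the detection filter and was not tested. Another kept probe of Mpo had an SD of 0.98, also with CSF1Ri 3 and CSF1Ri 1 highest. Its remaining probes, detected on 0 and 1 arrays, had SDs of 0.091 and 0.19 and missed the filter. Without CSF1Ri 3, 6 of 16 neutrophil genes passed, against 239 of all 9918 genes. The receptor gene Cxcr2 was not detected on an array.

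**Figure D2:**
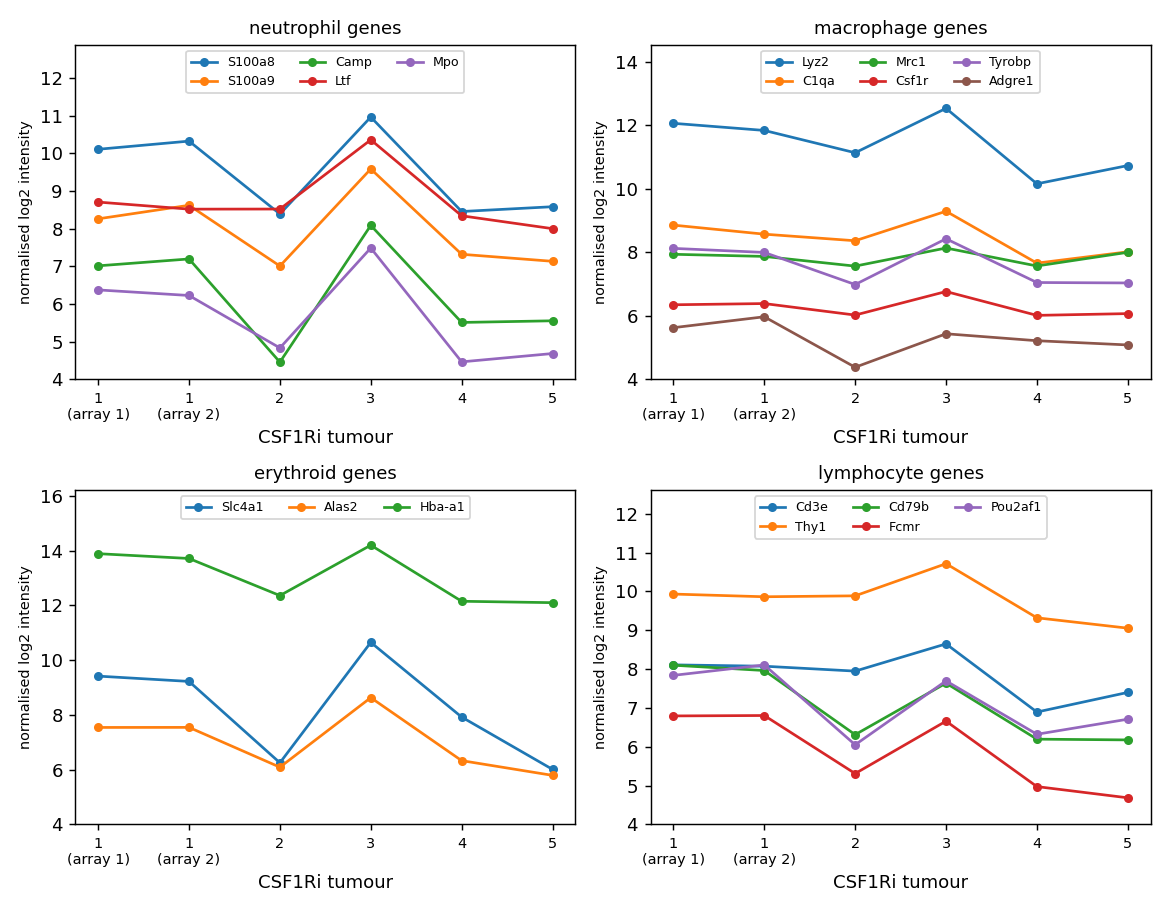
Normalised log2 intensity of genes of neutrophils, macrophages, red cells and lymphocytes on each array, with both arrays of CSF1Ri 1 shown apart and lines joining the values of a gene. In S100a8, Camp, Mpo, Slc4a1 and Alas2 both arrays of CSF1Ri 1 and the array of CSF1Ri 3 lie above the other 3 tumours, while Csf1r spans 6.01 to 6.76.

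Of 20 conventional dendritic cell genes on the array, 8 were detected in no tumour, a share of about that among all named genes (39.4%). They included Flt3, the growth factor receptor of the lineage, Xcr1, Clec9a, Cd209a and Zbtb46. Batf3, a transcription factor of cross-presenting dendritic cells, was detected in 4 tumours at 4.79, 5.14, 5.12, 4.72 and 4.87. Irf8, shared with monocytes, was detected in all 5 at 6.96 to 7.28. Of 13 osteoclast-type genes, 6 were undetected, also near that share, among them Acp5, Dcstamp, Ocstamp, Calcr and Atp6v0d2. Ctsk, the cathepsin of bone resorption that fibroblasts also express, was detected in all 5, at 8.28, 8.68, 9.70, 8.17 and 8.51 (adjusted p = 0.0386). That call was lost in 7 alternatives, among them without CSF1Ri 3 and with array brightness as a covariate.

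Cpa3, a mast cell protease gene, was detected in all 5 tumours at 5.38 to 5.91, while Ms4a2, Mcpt2 and Mcpt8 were not detected. Kit, the stem cell factor receptor, had 5.92, 6.41, 7.70, 6.16 and 6.21, with CSF1Ri 3 apart from the others (adjusted p = 0.00945), and its call was lost without CSF1Ri 3. Prg2, the major basic protein of eosinophils, had 6.24, 5.85, 9.01, 4.47 and 5.14 (adjusted p = 0.000438). The eosinophil genes Epx, Siglecf and Ccr3 were not detected on an array.

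Of 23 genes of Fc receptors and their adaptors, 12 were detected in all 5 tumours. Fcgr2b, the inhibitory receptor for IgG, had 9.31, 8.32, 9.26, 8.06 and 8.24 (adjusted p = 0.0115), and Fcgr3, an activating one, had 10.28, 9.49, 10.47, 9.09 and 9.23 (adjusted p = 0.0101). In both, CSF1Ri 1 and CSF1Ri 3 lay above the other tumours, and the call for Fcgr2b was lost when the probe with the lowest mean was used. Fcgr1 was detected in 2 tumours. Of 14 genes of this list tested, 5 passed (3 of 13 without CSF1Ri 3) and 12 had CSF1Ri 3 and CSF1Ri 1 as the highest tumours. Over all genes, 6.61% passed (239 of 9918 without CSF1Ri 3) and 9.95% had those tumours highest.

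Genes of alternative activation had different orders of the tumours. Arg1, the arginase of suppressive myeloid cells, had 11.10, 9.48, 10.95, 9.76 and 10.04, with CSF1Ri 1 and CSF1Ri 3 highest (adjusted p = 0.00541). Mgl2, a C-type lectin, had 6.55, 6.98, 8.09, 6.01 and 6.06, with CSF1Ri 3 highest (adjusted p = 0.00542), but its call was lost without CSF1Ri 3 and with the probe of lowest mean. Retnla, a resistin-like gene induced by interleukin 4, had 4.68, 6.14, 5.67, 4.85 and 6.82 (adjusted p = 0.00369). Its order of tumours was that of the acinar genes described below and not that of Arg1. Retnla was not detected in CSF1Ri 1, so the lower end of its order rests on a background value. In all, 5 of 19 genes of this list passed, and 3 of 19 without CSF1Ri 3, against 6.61% of all genes and 239 of 9918.

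Chemokine genes that passed the test had CSF1Ri 3 and CSF1Ri 1 as the highest tumours, in all 8 of 8 cases among 18 tested. Among all 679 genes that differed the share with these tumours highest was 30.9%, and 6.61% of all genes passed. Without CSF1Ri 3, 4 of 17 passed, against 239 of all 9918 genes. Ccl3 and Ccl4 encode inflammatory chemokines that attract leukocytes. Ccl3 had 7.66, 6.72, 8.02, 6.08 and 6.56 in CSF1Ri 1 to 5, and Ccl4 had 10.30, 8.99, 10.30, 8.94 and 9.05. Ccl5, a T cell and monocyte attractant, had 9.24, 7.83, 9.41, 8.06 and 7.64 (adjusted p = 0.00549). In each of these 3 genes CSF1Ri 1 and CSF1Ri 3 lay above the other tumours. The call for Ccl3 was lost in 6 alternatives, among them without CSF1Ri 1, 3 or 4, and that for Ccl4 in 3, among them without CSF1Ri 1. Among cytokines, Il1b had 8.55, 7.89, 8.84, 8.14 and 7.95 (adjusted p = 0.046), and Il1rn, its natural antagonist, had 7.53, 7.34, 8.81, 7.26 and 7.44 (adjusted p = 0.0148). The call for Il1b was lost in 7 alternatives, among them without CSF1Ri 1, 2 or 3, and that for Il1rn without CSF1Ri 3 and with the probe of lowest mean. Il6 and Il12a were not detected.

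Probes of several general leukocyte genes were not detected while others were bright. Ptprc, which encodes CD45, and Itgam, Itgax, Cd48, Cybb and Lcp2 were not detected on an array. In the same tumours Cd52, a surface glycoprotein gene of leukocytes, was detected throughout, at 10.59, 9.43, 10.95, 9.32 and 9.27 (adjusted p = 0.00309), and Coro1a, an actin regulator of leukocytes, had 9.69, 8.89, 10.61, 8.52 and 8.85. The call for Coro1a was lost with the probe of lowest mean. A gene without a detected probe is therefore given here as undetected by its probe, not as absent from the tissue. Of 12 myeloid transcription factor genes, 0 passed the limma F-test, and 2 had an unadjusted p under 0.05. In a list of this size, 0 calls is near the 6.61% of all genes. Spi1, which encodes PU.1, was detected in 2 tumours, and Cebpb had 11.37, 10.99, 11.27, 11.19 and 11.09.

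Over all 184 myeloid list genes tested, 61 differed between the tumours (33.2%), against 6.61% of all genes. Of the 61, 51 had CSF1Ri 3 and CSF1Ri 1 as the highest tumours (83.6%), against 30.9% of the 679 genes that differed and 9.95% of all 10272. CSF1Ri 3 was the highest for 46 and CSF1Ri 1 for 10. Genes had to be detected in at least 2 tumours to be tested. Some, such as Mpo, entered only through the tumours where they were high, which fixes part of their order. Without CSF1Ri 3 the count was 24 of 171 (14.04%, against 2.41% of all genes), without CSF1Ri 1 36 of 179, and with array brightness as a covariate 34 of 184. The median SD between tumours was 0.41 for the myeloid genes and 0.23 for all genes.

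Of 13 red cell genes tested, 8 had CSF1Ri 3 and CSF1Ri 1 as the highest tumours, as had 14 of 20 neutrophil genes. Over all 10272 genes the share was 9.95%. CSF1Ri 4 was the highest for 2 of the red cell genes and CSF1Ri 2 for 1. Slc4a1, the anion exchanger of the red cell membrane, had 9.32 in CSF1Ri 1, 6.25 in CSF1Ri 2, 10.65 in CSF1Ri 3, 7.92 in CSF1Ri 4 and 6.01 in CSF1Ri 5, a 24.9-fold range (adjusted p = 0.000357). Alas2, which starts haem synthesis in red cell precursors, had 7.54, 6.09, 8.63, 6.33 and 5.79. Hba-a1 had 13.80, 12.36, 14.20, 12.15 and 12.10, so this globin gene was higher in CSF1Ri 3 and CSF1Ri 1 than in the other 3 tumours. The mean of 13 erythroid genes was 8.25, 7.27, 8.69, 7.58 and 7.31, and 7 of 13 passed the test, or 5 of 12 without CSF1Ri 3. Over all genes, 6.61% passed, and 239 of 9918 without CSF1Ri 3. The mice were perfused, and the part of residual blood in the leukocyte genes was not tested.

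Among lymphocyte genes, Cd3e, a chain of the T cell receptor complex, had 8.09, 7.95, 8.65, 6.89 and 7.40, with CSF1Ri 4 lowest. Of 17 T cell genes, 7 passed, against 6.61% of all genes. All 7 had CSF1Ri 3 and CSF1Ri 1 as the highest, against 30.9% of all 679 genes that differed. Without CSF1Ri 3, 3 of 15 passed, against 239 of all 9918 genes. The B cell receptor chain gene Cd79b had 8.03, 6.31, 7.64, 6.20 and 6.18, and Fcmr, the receptor for IgM, had 6.80, 5.31, 6.66, 4.97 and 4.68. Pou2af1, a coactivator of B and plasma cells, had 7.97, 6.05, 7.70, 6.32 and 6.71. In these 3 genes CSF1Ri 1 was highest and CSF1Ri 3 next. Of 8 B and plasma cell genes, 7 passed, and 5 of 7 without CSF1Ri 3. Among the 7 that passed, 5 had CSF1Ri 3 and CSF1Ri 1 as the highest tumours, against 30.9% of all 679 genes that differed. The call for Cd79b was lost without CSF1Ri 1, and that for Cd3e in 4 alternatives, among them without CSF1Ri 3 or 4 and with array brightness as a covariate.

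The genes with the largest spread between the treated tumours were those of pancreatic acinar cells, which make and secrete the digestive enzymes. The mean of 32 acinar genes was 5.46 in CSF1Ri 1, 9.95 in CSF1Ri 2, 8.94 in CSF1Ri 3, 7.41 in CSF1Ri 4 and 11.82 in CSF1Ri 5 (SD 2.42). The mean on the repeat arrays of CSF1Ri 1 was 5.45 and 5.47. Of the 32, 31 passed the test, against 6.61% of all genes, and all 32 were highest in CSF1Ri 5. The exception to the test was Nupr1, a stress-response gene (adjusted p = 0.192). Of the 30 genes with the largest SD, 21 were on the acinar list and 29 had the order CSF1Ri 5, 2, 3, 4 and 1 from high to low.

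**Figure D3:**
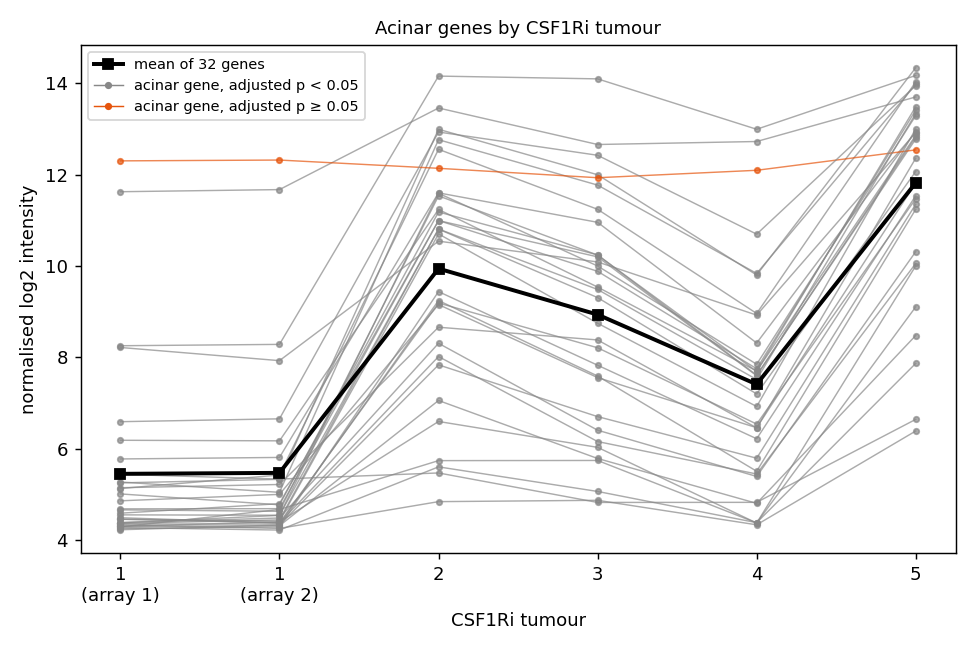
Normalised log2 intensity of 32 acinar genes on each array of the CSF1Ri tumours, with lines joining the values of a gene and the black line their mean. The mean runs from 5.46 in CSF1Ri 1 to 11.82 in CSF1Ri 5, both arrays of CSF1Ri 1 lie together, and the orange gene is Nupr1.

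Cela2a, an elastase, had 5.29 in CSF1Ri 1, 12.997 in CSF1Ri 2, 12.001 in CSF1Ri 3, 9.81 in CSF1Ri 4 and 14.34 in CSF1Ri 5, a 530-fold range (adjusted p = 3.29e-06). Clps, the cofactor of pancreatic lipase, had 5.16, 12.77, 11.77, 9.84 and 13.98, a 452-fold range. Ctrb1, a chymotrypsinogen, had 5.28, 12.56, 11.24, 8.96 and 14.03, and Cpa1, a carboxypeptidase, had 4.89, 11.19, 10.25, 7.61 and 12.78. The pancreatic amylase gene Amy2a5 had 8.27, 14.16, 14.10, 12.997 and 14.17, so all but CSF1Ri 1 lay near the top of the scale. Cela2a in CSF1Ri 5 was brighter still, and differences between such bright values may be compressed, fold ranges included. Cpb1, another carboxypeptidase, had 4.46, 11.60, 10.003, 7.85 and 13.29 and was not detected in CSF1Ri 1. Of the 32 genes, 14 were detected in all 5 tumours. In each of the others at least 1 tumour lay at background, which limits its distance from the rest, and fold ranges are given only for genes detected in all 5. The call for Cpb1 was lost with its other kept probe.

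Genes of acinar transcription factors were highest in CSF1Ri 5, as the enzyme genes were. Ptf1a, which directs the acinar programme, had 4.25, 5.60, 5.07, 4.38 and 7.87, Rbpjl, its partner, had 4.30, 4.84, 4.87, 4.34 and 6.39, and Bhlha15, which shapes the secretory apparatus, had 5.39, 5.47, 4.83, 4.83 and 6.65. These 3 genes were picked for their role after the values had been seen. In each CSF1Ri 5 was above the other tumours. Ptf1a was not detected in CSF1Ri 1 and 4, nor Rbpjl in CSF1Ri 1, 2 and 4, so those values are background. Only Ptf1a had the full order of the enzymes, and its lower end rests on background values. Rbpjl was slightly higher in CSF1Ri 3 than in CSF1Ri 2, where it was not detected, and Bhlha15 was not lowest in CSF1Ri 1. The call for Bhlha15 was lost without CSF1Ri 5 and with the probe of lowest mean.

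Since the acinar genes moved together, the promoters of the 3 with the largest spread among those with a RefSeq promoter entry (250 bases before to 50 after the start) are shown. Capitals mark matches, on either strand, to the E-box CACCTG and to TGGGAA, the kinds of element that the PTF1 complex of Ptf1a and an RBPJ protein is known to bind. The motifs may overlap where the end of one is the start of the other.
Cela2a, GRCm38.p6 chr4:141825956-141826255, minus strand: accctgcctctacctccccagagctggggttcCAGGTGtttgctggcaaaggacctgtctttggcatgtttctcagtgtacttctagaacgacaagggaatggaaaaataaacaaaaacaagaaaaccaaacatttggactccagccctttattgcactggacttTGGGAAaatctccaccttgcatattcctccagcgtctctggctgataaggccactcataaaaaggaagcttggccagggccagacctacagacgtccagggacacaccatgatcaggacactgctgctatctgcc
Cpb1, GRCm38.p6 chr3:20275684-20275983, minus strand: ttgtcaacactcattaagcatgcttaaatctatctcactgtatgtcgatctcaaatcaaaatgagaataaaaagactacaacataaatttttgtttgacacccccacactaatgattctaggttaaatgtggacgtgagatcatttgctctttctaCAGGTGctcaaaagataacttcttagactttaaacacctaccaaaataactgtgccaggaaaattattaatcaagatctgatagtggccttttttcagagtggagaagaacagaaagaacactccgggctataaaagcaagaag
Ctrb1, GRCm38.p6 chr8:111690961-111691260, minus strand: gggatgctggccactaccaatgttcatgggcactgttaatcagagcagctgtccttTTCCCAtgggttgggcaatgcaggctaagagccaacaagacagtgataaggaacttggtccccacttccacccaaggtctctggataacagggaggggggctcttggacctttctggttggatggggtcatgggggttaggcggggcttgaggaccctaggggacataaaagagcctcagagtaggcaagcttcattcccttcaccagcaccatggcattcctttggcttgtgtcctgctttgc
Of the 32 acinar genes, 24 had a promoter entry, and 13 of the 24 held CACCTG or its complement (54.2%), against 20.2% of 32851 promoters of the same length. TGGGAA or its complement was found in 14 of the 24 (58.3%), against 25.6% of all. Both acinar shares count genes, and a gene with several entries counts if any of them matches. The shares over all promoters count single entries, so the acinar shares and these are unlike measures. A match is a run of letters, and binding was not measured.

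Members of the Reg family, secreted lectins of exocrine pancreas that are known to increase with pancreatic injury, were highest in CSF1Ri 5. Of 10 genes of the list of Reg and injury proteins tested, 5 had the acinar order (Reg1, Reg2, Reg3a, Reg3b and Reg3d), Reg3g had CSF1Ri 4 above CSF1Ri 3, and 3 injury genes (Lcn2, Saa3 and Hp) were highest in CSF1Ri 3. Reg2 had 5.09, 12.60, 11.39, 9.36 and 13.89 in CSF1Ri 1 to 5, and Reg3a had 4.69, 11.52, 10.11, 8.45 and 13.19. The mean of the 10 was 7.91, 10.75, 10.48, 9.10 and 11.60, and 9 of 10 passed, or 6 of 10 without CSF1Ri 3. Over all genes, 6.61% passed, and 239 of 9918 without CSF1Ri 3. The order 5, 2, 3, 4 and 1 was shown by 51 of the 679 genes that differed (7.51%) and by 72 of all 10272 (0.70%). Of the 51, 32 were on the acinar or Reg lists. The other 19 included trypsin-like genes such as Gm5409 and Gm10334 and kallikrein genes such as Klk1b26, Klk1b5 and Klk1b27. Trypsin and kallikrein genes are near-identical copies, and their probes may share targets.

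Islet and ductal genes had other orders of the tumours. Among islet genes, Gcg, which encodes glucagon, had 9.60, 8.27, 10.28, 7.63 and 8.78, Pyy, a peptide hormone gene, had 6.81, 6.35, 8.91, 5.97 and 7.11, and 5 of 17 islet genes passed (3 of 14 without CSF1Ri 3). Of 29 ductal and tumour epithelial genes, 17 passed (11 of 29 without CSF1Ri 3), and their mean was highest in CSF1Ri 2 and lowest in CSF1Ri 1, at 9.42, 10.30, 10.13, 9.65 and 9.996. For both lists the share over all genes was 6.61%, and 239 of 9918 without CSF1Ri 3. Gkn3, a gastrokine, had 8.39, 9.45, 11.61, 10.01 and 9.85, and Cftr, the chloride channel of ducts, had 5.75, 6.68, 8.68, 6.05 and 6.74. Muc5ac, a gastric-type mucin, had 7.78, 10.41, 9.14, 8.90 and 9.72, with CSF1Ri 2 highest. The call for Cftr was lost without CSF1Ri 3, with array brightness as a covariate and in the authors' processed values.

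**Figure D4:**
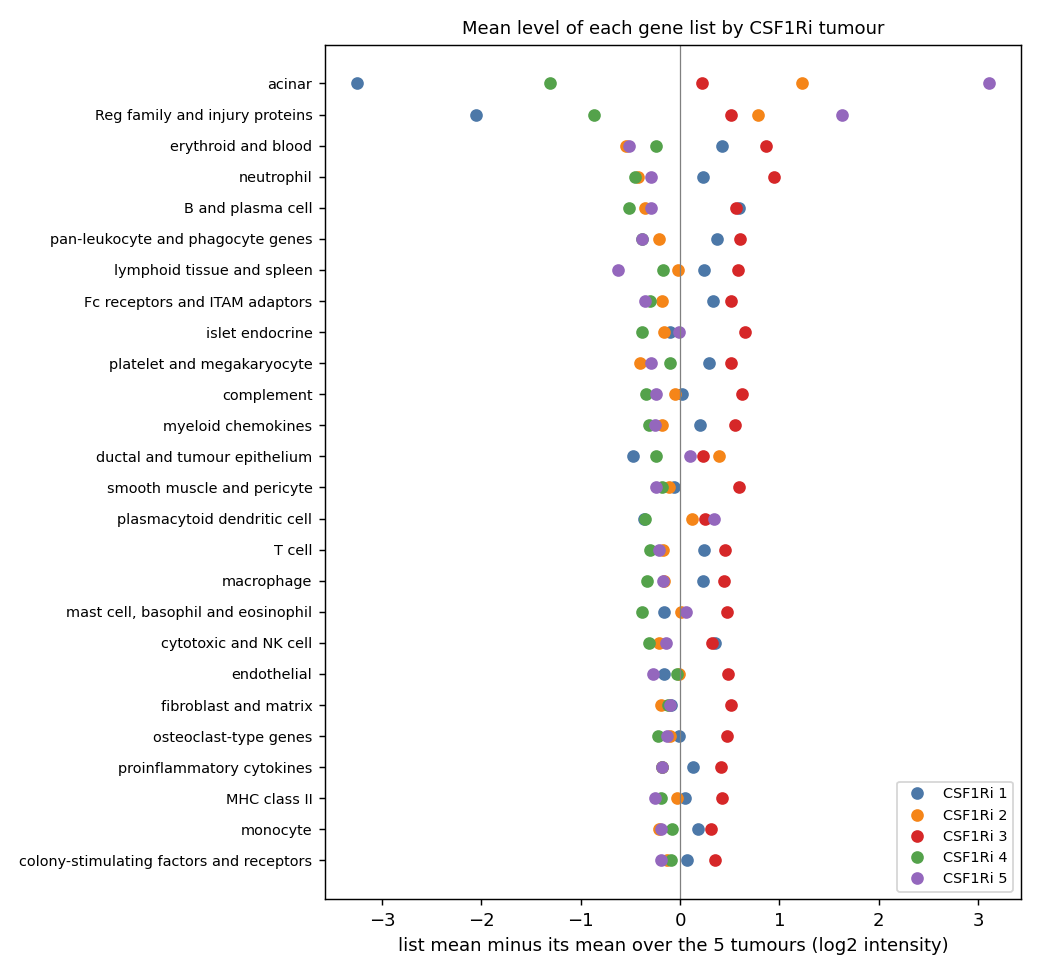
Mean level of each gene list in each CSF1Ri tumour minus its mean over the 5 tumours, in log2 intensity, for the 26 lists with the largest spread. The acinar list spans 5.46 to 11.82 with CSF1Ri 5 highest and CSF1Ri 1 lowest, while CSF1Ri 3 is highest in the neutrophil, macrophage, erythroid, fibroblast and endothelial lists.

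Across all genes, 679 of 10272 differed between the tumours, and 95 had an SD over 1. Each of the 679 was put in a class by the tumour farthest from its median. CSF1Ri 3 stood high for 357 of them (52.6%), while the same pattern held for 16.1% of all genes tested. Next came CSF1Ri 2 high with 58 genes, CSF1Ri 1 low with 55, CSF1Ri 4 low with 47 and CSF1Ri 2 low with 40. CSF1Ri 4 stood high for 4 genes, Calb2, Scara5, Selp and Nfkbiz, and their calls were lost in 9, 5, 6 and 8 alternatives, among them without CSF1Ri 1 and with array brightness as a covariate. Without CSF1Ri 3, 239 genes differed, and all 239 were among the 679.

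**Figure D5:**
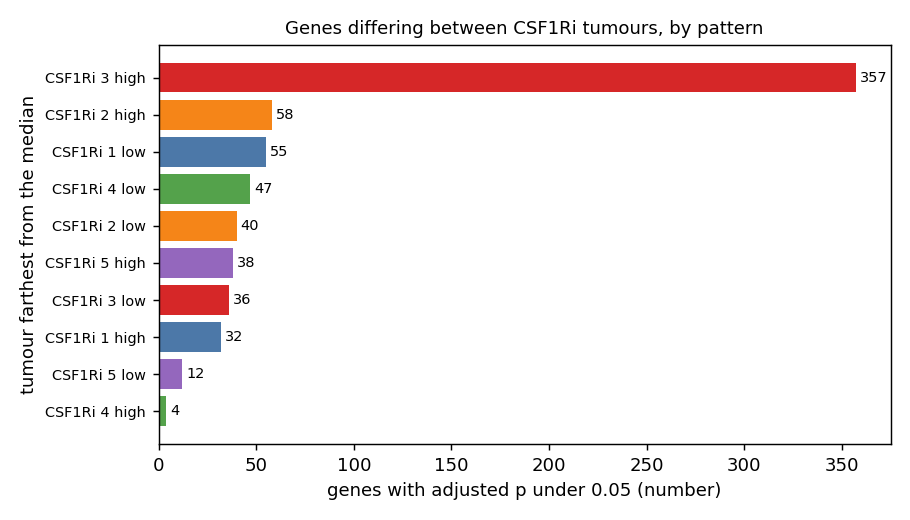
Number of genes differing between the CSF1Ri tumours (adjusted p under 0.05), by the tumour farthest from the gene's median and the side on which it lay. The bar for CSF1Ri 3 high holds 357 of 679 genes and the next one, CSF1Ri 2 high, holds 58.

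Genes high in CSF1Ri 3 came from several tissues besides blood cells. H2-Eb1, which encodes the class II beta chain that pairs with H2-Ea, had 8.09, 8.55, 11.22, 8.30 and 7.91, and H2-Q6, a class Ib gene with close copies, had 7.38, 7.51, 10.33, 7.15 and 7.54. Gpx2, a glutathione peroxidase of epithelium, had 8.10, 8.56, 11.03, 7.42 and 7.69, and Wfdc18 had 7.31, 8.61, 10.86, 7.15 and 7.93. Besides H2-Ea, which was not on the list, the test separated 2 of 11 listed class II genes, H2-Eb1 and H2-Oa. It separated 1 of 16 class I genes, H2-Q6, and 15 of 30 fibroblast genes, against 6.61% of all genes. In 12 of those 15 CSF1Ri 3 stood high. Pi16, a marker of adventitial fibroblasts, had 7.60, 8.18, 9.94, 7.89 and 7.74. Without CSF1Ri 3, 1 of 30 fibroblast genes passed (3.33%, near the 2.41% of all genes), and the calls for H2-Ea, H2-Eb1, H2-Q6, Gpx2 and Pi16 were lost. In the values as processed by the authors H2-Q6 did not pass either, nor did H2-Oa with its probe of lowest mean. With array brightness as a covariate 5 of 30 fibroblast genes passed, against 3.38% of all genes. That covariate rests on repeat arrays only, and the part of array brightness in the differences between tumours was not tested.

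The promoter of H2-Eb1 is shown because this class II gene is high in the tumour that also carries the H2-Ea signal, and capitals mark the Y box CTGATTGG, an element of class II promoters, which on either strand is found in 4.10% of all 32851 promoters.
H2-Eb1, GRCm38.p6 chr17:34305617-34305916, plus strand: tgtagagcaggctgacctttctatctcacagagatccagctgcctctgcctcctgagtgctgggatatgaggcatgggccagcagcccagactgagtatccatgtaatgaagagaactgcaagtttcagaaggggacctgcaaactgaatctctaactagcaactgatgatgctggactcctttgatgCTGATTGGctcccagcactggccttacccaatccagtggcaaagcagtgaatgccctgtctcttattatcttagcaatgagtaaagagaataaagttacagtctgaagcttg
No entry for H2-Ea was in the table.

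Smaller sets of genes set other tumours apart. In CSF1Ri 2, Gsta1, a glutathione transferase, had 8.78 against 7.21, 7.37, 6.45 and 8.25 in CSF1Ri 1, 3, 4 and 5, and Bcas1 had 10.23 against 8.40, 8.43, 8.63 and 9.65. CSF1Ri 2 was low for the placental-type prolactin genes Prl2c2, Prl2c3 and Prl2c4, near-identical copies. Prl2c3 had 10.43 there and 11.31 to 12.65 in the other tumours. Csrp1, a LIM protein gene, had 8.84, 5.30, 9.66, 8.57 and 5.95 (adjusted p = 9.27e-05), so CSF1Ri 2 and CSF1Ri 5 lay far below the other 3 tumours. The lymphoid chemokine gene Ccl21a had 9.34, 8.25, 7.69, 8.82 and 7.15, with CSF1Ri 1 and CSF1Ri 4 highest. Il11, an IL-6 family cytokine, was low in CSF1Ri 3, at 7.98 against 9.19 to 10.19 in the others. The call for Il11 was lost without CSF1Ri 3, that for Ccl21a without CSF1Ri 1 and in the authors' processed values, and that for Gsta1 in the authors' processed values and with the probe of lowest mean.

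Principal axes were computed over all 10272 genes. The first axis held 37.7% of the variance and the second 36.6%. The first put CSF1Ri 1 and CSF1Ri 4 on one side and CSF1Ri 2, 3 and 5 on the other, with scores of 28.1, -18.8, -15.3, 20.4 and -14.4, and acinar genes led its negative side. The second had CSF1Ri 3 at 33.6 and CSF1Ri 5 at -24.8, led by H2-Ea, Slc4a1 and Prg2 on one side and acinar genes on the other. With acinar and Reg genes and all others of the same order left out, an alternative chosen after the data were seen, the first axis held 48.9% and had CSF1Ri 3 at 36.6 and the other tumours between -17.8 and 1.84.

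Other gene groups had few or no calls. Of 24 proliferation genes, 20 unfolded protein response genes and 22 housekeeping genes, 0 passed the limma F-test, and 1, 7 and 2 of them had an unadjusted p under 0.05. Of 26 oxidative phosphorylation genes 1 passed, Atp5b, a subunit of ATP synthase, and its call was lost in 8 alternatives. In lists of this size, 0 or 1 call is near the 6.61% of all genes. The list means had SDs of 0.07, 0.19, 0.04 and 0.03 in that order. The median SD of single genes was 0.18 for proliferation, 0.13 for housekeeping and 0.14 for oxidative phosphorylation, below the 0.23 of all genes, but 0.30 for the unfolded protein response. Of all 10272 genes tested, 2591 had an unadjusted p under 0.05 in the F-test, a lower share than that of the unfolded protein response genes. Of 23 type I interferon response genes 1 passed, the antiviral gene Rsad2, at 7.12, 5.69, 7.79, 6.35 and 6.05 (adjusted p = 0.00772), with CSF1Ri 3 and CSF1Ri 1 highest. Of 18 interferon gamma response genes 1 passed, the adhesion molecule gene Icam1, at 8.89, 8.90, 9.63, 8.74 and 8.56 (adjusted p = 0.0475), and its call was lost in 6 alternatives, among them without CSF1Ri 1 or 3 and with array brightness as a covariate. These shares of 4.35% and 5.56% are near the 6.61% of all genes, and the median SDs of single genes were 0.29 and 0.27.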

How the data were processed

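Total RNA of 5 CSF1Ri tumours was measured on 6 Illumina arrays. Intensity values were deposited by the authors without normalisation, and per the file headers each has a detection p-value. How the authors made their processed intensity values is unstated in the labels. Probes were named through the platform annotation: 34885 carried 1 symbol, 18 several and 10378 none, and 34807 matched RefSeq. Background correction from the detection p-values (offset 16), quantile normalisation over the 12 arrays and log2 followed (limma 3.58.1 neqc, R 4.3.3), and both arrays of CSF1Ri 1 were averaged. Probes detected in at least 2 of the 5 tumours were kept: 15235 probes of 10272 genes. limma's moderated F-test over 4 contrasts used all 12 arrays for the error, which came from 3 tumours hybridised again (CSF1Ri 1, Vehicle 1 and Vehicle 3). Its p-values had Benjamini-Hochberg adjustment over 10272 genes. On simulated data, with 50 shifted genes of each size among 10272, this test recovered 1 at a shift of 0.5, 22 at 1, 50 at 2 and 50 at 4 log2 units, with 8 false calls. With 5 tumours no correlation between genes was computed. The number of arrays limits the precision.

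The tumours and lists were chosen with earlier results of these data known. Genes were named by a rule: Csf1r, Csf1 and Il34, the leading members of each myeloid list and its undetected members, the 30 genes with the largest SD, the 3 leading genes of each list and the 5 leading genes of each class. Outside it, and chosen after their values were seen, are Ptf1a, Rbpjl, Bhlha15, Nupr1, Krt8, Krt19, Epcam, Reg1, Reg3b, Reg3g, Lcn2, Saa3 and Hp. Alternatives covered background correction, normalisation, filter, error, brightness, probe choice and leaving out each tumour.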

Additional observations from a re-analysis of the deposited data

Results flagged for a closer look

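Of 90 named genes and 42 list means, 7 genes and 4 lists had 1 tumour far from the other 4, by Dixon's ratio of the gap to the nearest tumour over the whole range (95% critical value 0.71). Chance alone passes about 1 in 20 groups, and 653 of all 10272 genes passed (6.36%), so the count is close to that of genes at large. CSF1Ri 3 stood high for H2-Q6 (ratio 0.879), Il1rn (0.826), H2-Eb1 (0.805), Pi16 (0.752) and Kit (0.728), and for the fibroblast list (0.852) and the smooth muscle list (0.781). It stood low for the housekeeping list (0.758), where the means span 10.96 to 11.06. CSF1Ri 1 stood low for Amy2a5 (0.800). CSF1Ri 5 stood high for Rbpjl (0.724) and for the hypoxia list (0.780), where the means span 9.85 to 9.99. CSF1Ri 3 is the array of lowest brightness, and the part of brightness in these gaps was not tested.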

How the results depend on the processing

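The count of genes differing between tumours was 679, and 1214 with normexp and an offset of 50, 352 with the 6 arrays normalised alone, 393 with the error from the CSF1Ri 1 pair, 347 with brightness as a covariate and 437 with the probe of lowest mean. Leaving out each tumour gave 239 to 829, the lowest without CSF1Ri 3, and 404 without CSF1Ri 1. Of the 347 genes called with the brightness covariate, 333 were among the 679. The count with CSF1Ri 3 high was 357, and 185 with the 6 arrays alone, 207 with the pair's error, 162 with brightness and 230 with the probe of lowest mean. It was 234 to 403 with another tumour left out. The first axis held 37.7%, 45.2% to 57.3% with a tumour left out and 48.9% without acinar and Reg genes, an alternative chosen after the data were seen. The SD of the housekeeping list was 0.04 and 0.0916 with the probe of lowest mean. That of class I genes was 0.16 and 0.34 with that probe, and that of adipocyte genes 0.04, with 0.0856 there and 0.0816 in the authors' processed values. Genes detected in all 5 tumours numbered 8611, and 7772 at a detection p under 0.01 (myeloid genes 135 and 117). C1qa lost its call in the authors' processed values, with the 6 arrays alone, with the pair's error, with brightness and without CSF1Ri 3. Of 90 named genes, 31 lost their call in an alternative, and 5 that had none (Csf1, Krt19, Mertk, Mrc1 and Nupr1) passed in one. Apart from the construction of each alternative, the cause was not tested. No paired analysis was possible because a single group is described and no replicate numbers are shared between compared groups. Dim probes limit what can be called undetected.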
